A study of Saccharomyces cerevisiae with 24 samples.

Results

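The cytosolic small (40S) ribosomal subunit of budding yeast is built from 1 ribosomal RNA and a set of Rps proteins, and the genes of those proteins are described here in 4 yeast strains before and after a shift to 37C. Members were the named probes whose gene symbol starts with RPS and a digit. The array held 55 such probes among its 5493 named genes, each for a different gene, and 54 of them had enough values to be tested. The probe of RPS24A fell short because it had values on 2 of the 5 prp17 null arrays at 37C, and its values are given without a test. The 55 genes form 24 pairs of A and B copies and 7 genes with 1 copy. By textbook knowledge, 36 of them have an intron and 19 have none, and the encoded proteins sit in the head of the subunit for 21 tested genes and in its body or platform for 33.

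The study followed 4 strains of Saccharomyces cerevisiae, named SS330, prp17 null, prp17-1 and prp22-1. Each course had 1 array from 23C, called 0 min here, and 5 arrays from 37C, taken 5, 15, 30, 60 and 120 min after the shift, which makes 24 arrays with 1 per strain and time. On every array the Cy5 channel carried total RNA and the Cy3 channel carried yeast genomic DNA, which served as a common reference. SS330 is the strain without a prp mutation in its name and was used as the comparison strain. The prp17 null strain lacks PRP17 by its name, and prp17-1 and prp22-1 are alleles known as temperature-sensitive. The sources used here give no growth medium, strain background or number of cultures. The 5 arrays of a strain at 37C are time points of 1 course. The p-values measure how unequally the strains moved over the times, pooled over the 4 strains. They do not measure the spread between separately grown cultures. In the comparison of 37C with 23C the 4 strains stand in for replicates.

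Ribosomal protein genes are among the most strongly transcribed genes of growing yeast, and they are switched off together when cells meet heat or another stress, in most cases for a short time. They also hold a large share of the introns of this genome, so that their pre-mRNAs are main clients of the spliceosome. Prp17, listed today under the symbol CDC40, acts around the second catalytic step of splicing, and Prp22 is the helicase that frees the finished mRNA from the spliceosome. Most yeast ribosomal proteins come from an A and a B gene whose products are identical or nearly so.

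The values are taken as log2 ratios of RNA to genomic DNA, with base 2 assumed, and were set to a median of 0 on each array. A value lower by 1 than on another array means that the ratio, relative to the typical probe, was halved between the 2 arrays. Over all probes the SD was 0.362 in SS330 at 23C. Whether each probe had been set to a baseline of its own before deposit is not known. The baseline of each probe is unknown, and values were compared between arrays and not between probes. An array gives no total amount of RNA, so a fall means a smaller share of the RNA. Probe sequences were not used here, so spliced and unspliced transcripts of a gene cannot be told apart, and the signals of near-identical A and B copies may be mixed and are uncertain to that extent. CDC40 read -2.76, -1.81, -0.63, -1.88, -1.50 and -1.58 at the 6 times in prp17 null and between -0.54 and 0.41 in SS330. PRP22 was not lower in prp22-1 (difference from SS330 at 37C 0.08 ± 0.17, SE, adjusted p = 0.845), which its allele name does not require. The prp17 null arrays were wider than the others: the SD over all probes at 37C was 0.816 to 1.05 there, 0.418 to 0.783 in SS330, 0.598 to 0.846 in prp17-1 and 0.603 to 0.906 in prp22-1. Between 77.3% and 98.4% of probes had a value on an array at 37C, and among member values 16 of 330 were missing in prp17 null, 5 in SS330, 8 in prp17-1 and 1 in prp22-1.

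**Figure D1:**
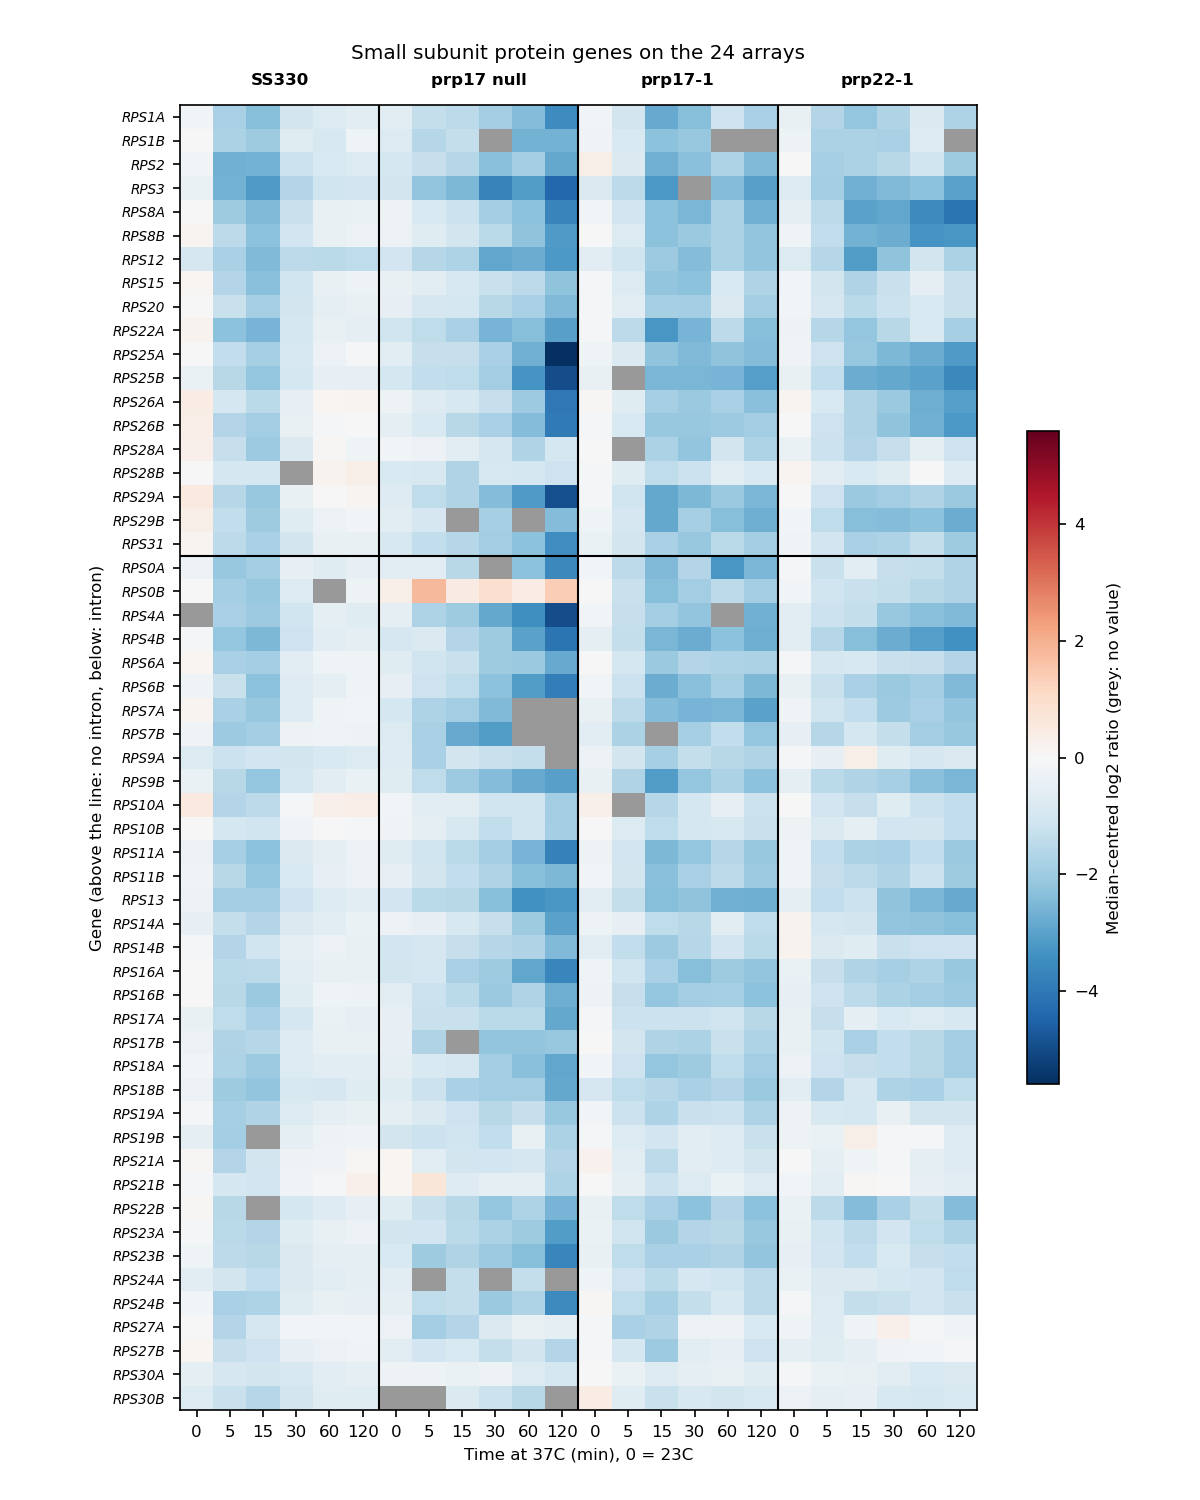
Median-centred log2 ratio of the 55 genes (rows) on the 24 arrays (columns, 6 times for each strain), with blue for low and red for high values and grey for no value. Among the 37C columns those of SS330 at 60 and 120 min are palest, the prp17 null column at 120 min is darkest, and RPS0B is the row that is red across prp17 null.

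All 4 strains lowered their small subunit genes at 37C, but the courses differed in timing. In SS330 the median change of the tested genes from the 23C array was -1.57, -1.86, -0.63, -0.33 and -0.30 at the 5 times in order, a dip within the early times followed by a return most of the way to the 23C level. In prp17 null the median fell at each step, from -0.44 and -0.71 at 5 and 15 min to -1.19, -1.46 and -2.16 at 30, 60 and 120 min. In prp17-1 it went to -0.88 and -1.91 and then stayed at -1.72, -1.24 and -1.78. In prp22-1 the values were -0.91, -1.21, -1.25, -1.14 and -1.56. The genes thus stood lower at 120 min than at 5 min in all 3 mutants and higher at 120 min than at 5 min in SS330, each seen on 1 array per time.

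Averaged over strains and times at 37C, 51 of the 54 tested genes were lower than at 23C and 0 were higher (limma, adjusted p under 0.05), where 16.9% of the 5487 tested probes were lower and 13.8% higher. The median of the 54 differences was -1.25, against 0.00 over all tested probes. By time, 20, 47, 32, 10 and 43 genes were lower at 5, 15, 30, 60 and 120 min, beside 14.6%, 17.7%, 9.7%, 2.61% and 9.95% of all probes. The 72 tested genes of the large subunit moved alike, with 68 lower and a median of -1.17. Without the prp17-1 arrays the count of lower small subunit genes was 23.

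The largest falls with a value in all 4 strains were those of RPS8A, RPS29A, RPS3 and RPS8B, none of which has an intron. RPS8A encodes a protein of the subunit body; it read 0.02 at 23C and -2.01, -2.49, -1.26, -0.43 and -0.38 at the 5 later times in SS330, and -0.28 followed by -0.87, -1.20, -1.90, -2.31 and -3.71 in prp17 null. It read -0.17, -1.07, -2.28, -2.56, -1.75 and -2.68 in prp17-1 and -0.53, -1.47, -2.98, -2.92, -3.56 and -4.11 in prp22-1. Every 37C value lay below the 23C value of its strain, and the fitted fall was -1.86 ± 0.41 (SE, adjusted p = 0.00229). Its copy RPS8B fell by 1.73 ± 0.35 (adjusted p = 0.00137), with its lowest values in prp22-1, -3.28 at both 60 and 120 min.

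RPS3 encodes a head protein at the entrance of the mRNA channel. Its values were -0.39, -2.65, -3.16, -1.64, -1.12 and -1.09 in SS330 and -1.02, -2.23, -2.51, -3.73, -3.13 and -4.41 in prp17 null. In prp17-1 it read -0.83, -1.46, -3.23, -2.44 and -3.02, with no value at 30 min, and in prp22-1 it read -0.76, -1.90, -2.68, -2.49, -2.31 and -3.01. The 37C values lay below the 23C value in each strain, with a fall of 1.79 ± 0.35 (adjusted p = 0.000981). RPS29A, for a zinc-binding head protein, fell by 1.84 ± 0.43 (adjusted p = 0.00354), and its values are given with the late times. RPS4A, which has an intron, had the lowest fitted value of all, -1.88 ± 0.44 (adjusted p = 0.00405), but lacks the SS330 array at 23C.

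3 genes did not pass in the shift, all of them with an intron and with a B in the name. RPS19B, for a head protein needed to mature the 18S rRNA, read -0.54, -1.91, -0.52, -0.29 and -0.21 in SS330, with no value at 15 min, and -0.29, -0.37, 0.33, -0.07, -0.11 and -0.75 in prp22-1. It read -1.02, -1.20, -1.13, -1.36, -0.43 and -1.77 in prp17 null and from -0.09 at 23C to -1.24 at 120 min in prp17-1, giving -0.26 ± 0.23 (adjusted p = 0.415). The 23C and 37C values overlapped in SS330, prp17 null and prp22-1. RPS21B, for a small body protein, had a difference of -0.49 ± 0.27 (adjusted p = 0.183); it stood above its 23C value at 120 min in SS330 (0.30 against -0.05) and at 5 min in prp17 null (0.67 against 0.12). RPS27B, for a zinc-finger protein of the body, had a difference of -0.54 ± 0.21 (adjusted p = 0.0599), with the 23C value of -0.53 in prp22-1 lying between -0.67 at 5 min and -0.09 at 120 min. RPS30A passed with the smallest fall, 0.39 ± 0.12 (adjusted p = 0.0223), and ranged over all 24 arrays from -1.01 to -0.03.

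**Figure D2:**
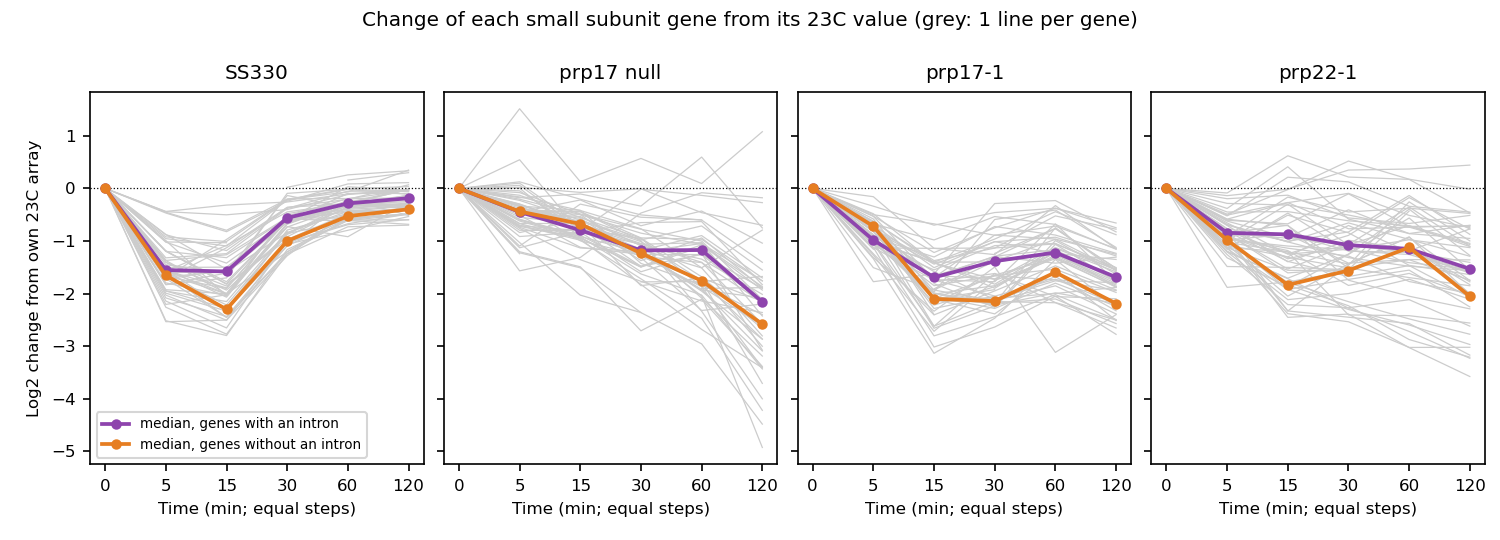
Log2 change of each gene from the 23C array of its own strain (vertical axis) at the 6 times (horizontal axis, equal steps); each grey line is 1 gene and the coloured lines are medians of the genes with and without an intron. The medians come back toward 0 in SS330 after 15 min and are lowest at 120 min in prp17 null.

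In the shift the median was lower for the genes without an intron, though not at every time in every strain. The median fitted difference was -1.62 for the 19 genes without an intron, all lower, and -1.13 for the 35 tested genes with an intron, 32 of them lower. In SS330 the change from 23C was -1.66 and -2.30 at 5 and 15 min for the genes without an intron and -1.55 and -1.58 for those with one. In prp17-1 the medians without and with an intron were -0.72 and -0.98 at 5 min, the other way round, and -2.14 and -1.38 at 30 min. In prp22-1 they were -1.83 and -0.87 at 15 min and close at 60 min, -1.12 and -1.15. In prp17 null they lay within 0.2 of each other up to 30 min and stood at -2.58 and -2.16 at 120 min. The difference between the classes was not tested, since the genes of a class share arrays and are no replicates. By place in the subunit the medians were close, -1.16 for the head and -1.28 for the body and platform.

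Compared with SS330 at the same time, most genes of each mutant were above SS330 at 5 min and below it from 30 min on. At 15 min most were above SS330 in prp17 null and prp22-1 and below it in prp17-1. The median difference of prp17 null from SS330 was -0.49 at 23C, 0.43 and 0.56 at the early times, and then -1.06, -1.64 and -2.46. At 23C 46 of 52 genes with both values were below SS330, at 5 min 4 of 53, and at 60 min 50 of 50. For prp17-1 the medians were -0.09, 0.56, -0.17, -1.10, -1.0 and -1.64, and all 53 genes were below SS330 at 120 min. For prp22-1 they were -0.20, 0.44, 0.49, -0.76, -0.89 and -1.41, with 53 of 54 above SS330 at 5 min and 52 of 53 below it at 120 min. The 3 mutants were set against the same SS330 arrays, so they share any deviation of those arrays.

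Over the 5 times at 37C together, where the early and late differences offset each other, fewer genes passed. In prp17 null 20 genes were lower and 1 was higher than in SS330 (limma, adjusted p under 0.05), beside 19.4% of all tested probes lower and 14.6% higher, so the count of 20 among 54 is to be read against a broad change. The median was -0.80, against -0.03 over all probes. In the prp22-1 comparison 1 of the 54 genes was lower (median -0.40), near the share of all probes (1.68%). In the prp17-1 comparison 0 were lower, beside 2.22% of probes, with 22 genes at an unadjusted p under 0.05 (median -0.65). With single arrays left out both counts ranged from 0 to 10, with 10 in each case without the SS330 array at 5 min. The prp17 null count was 33, 8, 8 and 6 without the SS330 array at 5, 30, 60 or 120 min, and 32, 12, 9 and 9 without the array of the mutant at 15, 30, 60 or 120 min. When the change from 23C was compared instead, 0 genes passed in any mutant (limma, 0.0% of all probes in each; 1, 1 and 0 genes at an unadjusted p under 0.05), with a single 23C array per strain.

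RPS23B and RPS27A were the genes that were lower in prp17 null at all 5 times. RPS17B, with no prp17 null value at 15 min, was lower at the other 4 times, though barely at 5 min (-1.69 against -1.67). RPS23B encodes a protein of the decoding centre; at 37C it read -1.45, -1.57, -0.82, -0.51 and -0.57 in SS330 and -1.99, -1.69, -2.03, -2.38 and -3.67 in prp17 null. Its prp17 null values all lay below the SS330 values, by -1.37 ± 0.28 (adjusted p = 0.00223). The call was lost with the arrays of both strains alone (adjusted p = 0.0568) and at 5 and 15 min alone (-0.33, adjusted p = 0.384). RPS27A read -1.65, -0.93, -0.16, -0.15 and -0.14 in SS330 and -1.91, -1.66, -0.81, -0.43 and -0.52 in prp17 null, 2 overlapping ranges whose paired difference was -0.46 ± 0.17 (adjusted p = 0.0412). That call was lost with values as deposited (adjusted p = 0.0742) and without each of several single arrays. RPS29B was the gene that passed in prp22-1, with -1.36, -1.97, -0.69, -0.34 and -0.16 in SS330 and -1.42, -2.37, -2.43, -2.28 and -2.78 in the mutant. It was lower at all 5 times, with overlapping ranges, giving -1.35 ± 0.33 (adjusted p = 0.0374), a call lost without any 1 of the SS330 or prp22-1 arrays at 30, 60 or 120 min (adjusted p = 0.0824 to 0.131). The call was also lost without the prp22-1 array at 5 min (0.0602) or the prp17-1 array at 15 or 30 min (0.0511 and 0.0506). Trend and robust settings (0.0538), no replicate block (0.0905) and the arrays of both strains alone (0.0853) lost it too.

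At the late times, 30, 60 and 120 min, most small subunit genes stood below SS330 in every mutant. Earlier results of these data had shown the sign of the difference turning between 15 and 30 min, where early and late were split. The late counts and p-values therefore describe a pattern already seen and are no independent test of it. In prp17 null 49 of 54 genes were lower and 1 was higher (limma, adjusted p under 0.05), beside 22.5% of all probes lower and 18.3% higher, with a median difference of -1.73 against -0.03 over all probes. In prp17-1 37 genes were lower, beside 4.52% of probes, with a median of -1.24. In prp22-1 29 genes were lower, beside 3.08% of probes, with a median of -1.0. The large subunit genes gave 71, 45 and 30 lower of 72. Without the SS330 array at 120 min 14 genes passed in prp17-1 and 15 in prp22-1, without single late arrays of the mutant 21 (30 min) or 24 (120 min) in prp17-1 and 19 (60 min) or 18 (120 min) in prp22-1. Quantile normalization gave 29 in prp17 null.

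**Figure D3:**
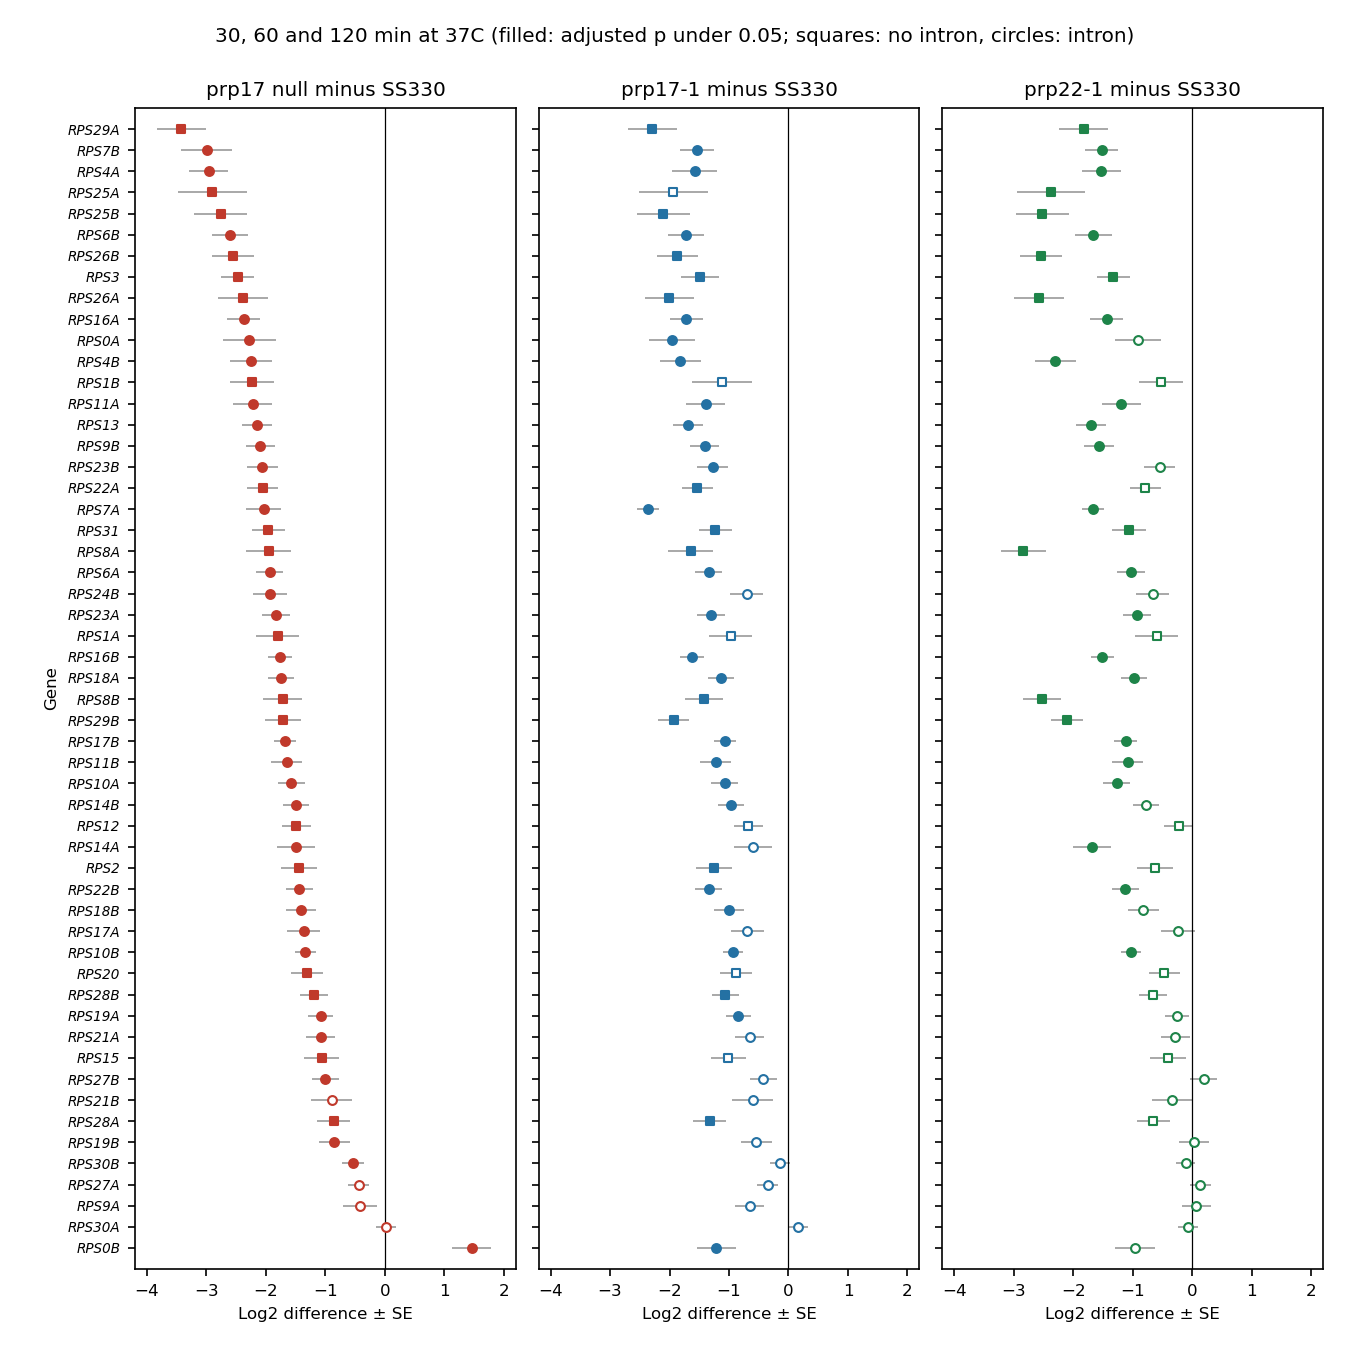
Fitted log2 difference of each mutant from SS330 over 30, 60 and 120 min for the 54 tested genes (horizontal axis, points with SE bars), ordered by the value in prp17 null. Filled points passed at an adjusted p under 0.05, squares mark genes without an intron, and RPS0B alone lies clearly right of 0 in prp17 null.

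In prp17 null the lowest fitted late differences were those of RPS29A, RPS7B and RPS4A, of which RPS7B rests on a single array. RPS29A read 0.54 at 23C and -1.60, -2.11, -0.43, 0.01 and 0.14 in SS330, while prp17 null gave -0.71 and then -1.42, -1.70, -2.43, -3.18 and -4.93. The late values did not overlap, and the difference was -3.42 ± 0.41 (adjusted p = 4.5e-05). RPS4A, for a body protein that binds the 18S rRNA, read -1.79, -2.03, -1.11, -0.57 and -0.69 at 37C in SS330 and -0.48, -1.71, -1.99, -2.85, -3.44 and -4.96 in prp17 null. Its late difference was -2.96 ± 0.32 (adjusted p = 3.34e-05), again with no overlap. RPS7B, for a body protein that is ubiquitinated when ribosomes stall, rests on 1 late array: it read -0.30, -0.22 and -0.27 at 30, 60 and 120 min in SS330 and -3.14 at 30 min in prp17 null, with no value at 60 and 120 min. The fit gave -3.00 ± 0.43 (adjusted p = 0.000291), which assumes that the lone array varies like the other groups.

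In prp17-1 the largest late falls were those of RPS7A, RPS29A and RPS25B. RPS7A read 0.14, -1.81, -2.14, -0.70, -0.23 and -0.15 in SS330 and -0.44, -1.47, -2.43, -2.62, -2.54 and -3.01 in prp17-1. At the late times the mutant values lay together and far below those of SS330, by -2.36 ± 0.19 (adjusted p = 4.4e-05). RPS29A gave -2.51, -2.09 and -2.56 at the late times in prp17-1, a difference of -2.29 ± 0.41 (adjusted p = 0.00428). RPS25B, whose head protein is needed for translation from internal entry sites, read -1.0, -0.47 and -0.48 in SS330 and -2.58, -2.60 and -3.08 in prp17-1 at those times. The groups did not overlap and the difference was -2.11 ± 0.45 (adjusted p = 0.0118), a call lost without the SS330 array at 120 min (adjusted p = 0.0996) or the prp17-1 array at 30 min (0.0637) or 60 min (0.0529).

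In prp22-1 the largest late falls were those of RPS8A, RPS26A and RPS26B, and none of these genes has an intron. RPS26 lies at the exit of the mRNA channel, where it touches the message upstream of the start codon. RPS26A read 0.41, -1.0, -1.52, -0.47, 0.12 and 0.15 in SS330 and 0.13, -0.85, -1.70, -2.10, -2.74 and -3.08 in prp22-1. The 2 strains ran together up to 15 min and then parted, with a late difference of -2.57 ± 0.41 (adjusted p = 0.00233). RPS26B read 0.37, -1.62, -1.96, -0.42, -0.10 and 0.00 in SS330 and 0.03, -1.17, -1.69, -2.25, -2.69 and -3.20 in prp22-1, and differed by -2.54 ± 0.35 (adjusted p = 0.000785). RPS8A differed by -2.84 ± 0.38 (adjusted p = 0.000718) from the values given above. The copies RPS8B, RPS25A, RPS25B and RPS29B, which also lack an intron, had late differences of -2.52, -2.37, -2.52 and -2.10. RPS4B, which has an intron, lay in the same range with -2.30 ± 0.35 (limma, adjusted p = 0.00161). Other genes without an intron did not pass in prp22-1: RPS12 had a difference of -0.23, RPS15 of -0.40 and RPS20 of -0.47. Over the classes, 10 of 19 genes without an intron and 19 of 35 with one were lower, with medians of -1.06 and -0.97. In prp17 null these counts were 19 of 19 and 30 of 35, and in prp17-1 13 of 19 and 24 of 35.

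The 4 genes with an intron that follow did not pass in any mutant at the late times, which does not show that they equalled SS330. RPS30A, for a small protein near the decoding centre, read -0.91, -0.62 and -0.54 in SS330 and -0.30, -0.75 and -0.99 in prp17 null, a difference of 0.01 ± 0.17 (adjusted p = 0.961). Its differences were 0.16 ± 0.17 in prp17-1 and -0.06 ± 0.17 in prp22-1. RPS9A gave -0.42 ± 0.28, -0.65 ± 0.25 and 0.07 ± 0.25 in the 3 mutants, RPS27A gave -0.44, -0.35 and 0.14, and RPS21B gave -0.89, -0.60 and -0.33, none of which passed. RPS27A did pass in prp17 null over all 5 times, as given above. These 4 genes and RPS0B are those that were not lower in prp17 null.

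RPS0B was the gene that ran against the rest. Rps0 is a body protein required for processing of the 18S rRNA precursor. RPS0B read 0.04, -1.91, -2.11, -0.78 and -0.28 in SS330, with no value at 60 min, but 0.32, 1.83, 0.44, 0.89, 0.41 and 1.40 in prp17 null. In prp17-1 it read 0.00, -1.24, -2.40, -1.95, -1.47 and -1.93, and in prp22-1 -0.15, -1.13, -1.25, -1.31, -1.57 and -1.69. It was thus higher in prp17 null at each of the 4 times at 37C with both values, with no overlap, and the difference was 2.30 ± 0.33 (adjusted p = 0.000254). It was the 1 higher gene over all 5 times and at the late times (1.46 ± 0.33, adjusted p = 0.00351). In prp17-1 it was lower at the late times (-1.22 ± 0.33, adjusted p = 0.0391).

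At the early times, 5 and 15 min, few genes passed on their own. In prp17 null 2 genes were higher than in SS330 (limma, 2.14% of all probes), RPS0B by 3.15 ± 0.35 and RPS18A, for a head protein, by 1.00 ± 0.27 (adjusted p = 0.000394 and 0.0489). In prp22-1 2 were higher (0.823% of probes), RPS30B by 0.94 ± 0.20 and RPS19B by 1.81 ± 0.40 (adjusted p = 0.0391 and 0.0434). RPS19B has 1 early SS330 array, with -1.91 at 5 min against -0.37 in prp22-1, so its call assumes that the lone array varies like the other groups. In prp17-1 0 passed (0.183% of probes, 3 genes at an unadjusted p under 0.05). None was lower, where 2.68%, 0.219% and 0.512% of probes were. The median differences were 0.48, 0.17 and 0.51 in prp17 null, prp17-1 and prp22-1.

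The change of the difference from the early to the late times was tested as such, a pattern that earlier results of these data had already shown. In prp17 null 49 of 54 genes were lower late than early relative to SS330 (limma, adjusted p under 0.05), beside 5.68% of all probes, with a median of -2.26 against 0.02 over all probes. RPS29A, RPS4B and RPS25B moved most, by -3.73 ± 0.65, -3.35 ± 0.55 and -3.23 ± 0.71 (adjusted p = 0.00384, 0.00298 and 0.0121). RPS4B read -2.15, -2.50, -1.15, -0.65 and -0.55 at 37C in SS330 and -0.82, -1.63, -1.99, -3.00 and -4.11 in prp17 null, so that it lay above SS330 early and below it late. RPS25B read -1.57, -2.15, -1.0, -0.47 and -0.48 in SS330 and -1.37, -1.41, -1.96, -3.30 and -4.97 in prp17 null, and its call was lost without the SS330 array at 5 min (adjusted p = 0.0731) or 15 min (0.0508) or the mutant's at 15 min (0.0763). The count was 24 without the SS330 array at 5 min, 15 with quantile normalization and 18 with the arrays of prp17 null and SS330 alone.

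In the other mutants the medians were -1.45 and -1.53, but few genes passed. In prp17-1 the gene was RPS7A (-2.39 ± 0.30, adjusted p = 0.0183), the 1 probe called lower among all probes (0.0183%), while 45 small subunit genes had an unadjusted p under 0.05. In prp22-1 5 genes passed (0.238% of probes), RPS26B by -2.90 ± 0.55, RPS7A by -2.39 ± 0.30, RPS13 by -2.31 ± 0.41, RPS16B by -2.03 ± 0.32 and RPS6A by -1.97 ± 0.36. RPS13, for a body protein, read -1.92, -1.90, -1.16, -0.75 and -0.65 at 37C in SS330 and -1.37, -1.22, -2.27, -2.57 and -2.81 in prp22-1, above SS330 early and below it late. With single arrays left out these counts ranged from 0 to 15 and from 0 to 24. Both were 0 without the SS330 array at 5 min and without the replicate block, and they were 22 and 28 with the arrays of the mutant and SS330 alone.

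The A and B copies mostly moved together. Over the 24 arrays the SD of the difference between the copies was low for RPS26 (0.23) and RPS25 (0.25), and highest for RPS0 (1.34), RPS9 (0.72) and RPS29 (0.66). The median SD of a pair over the 6 arrays of a strain was 0.27 in SS330, 0.29 in prp17-1, 0.26 in prp22-1 and 0.49 in prp17 null. The difference A minus B is not changed by the centring of an array. It does depend on the width of the array's values, which was larger in prp17 null, as given above. Of the small subunit pairs 23 were tested, together with the other A and B pairs on the array, 53 in all.

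**Figure D4:**
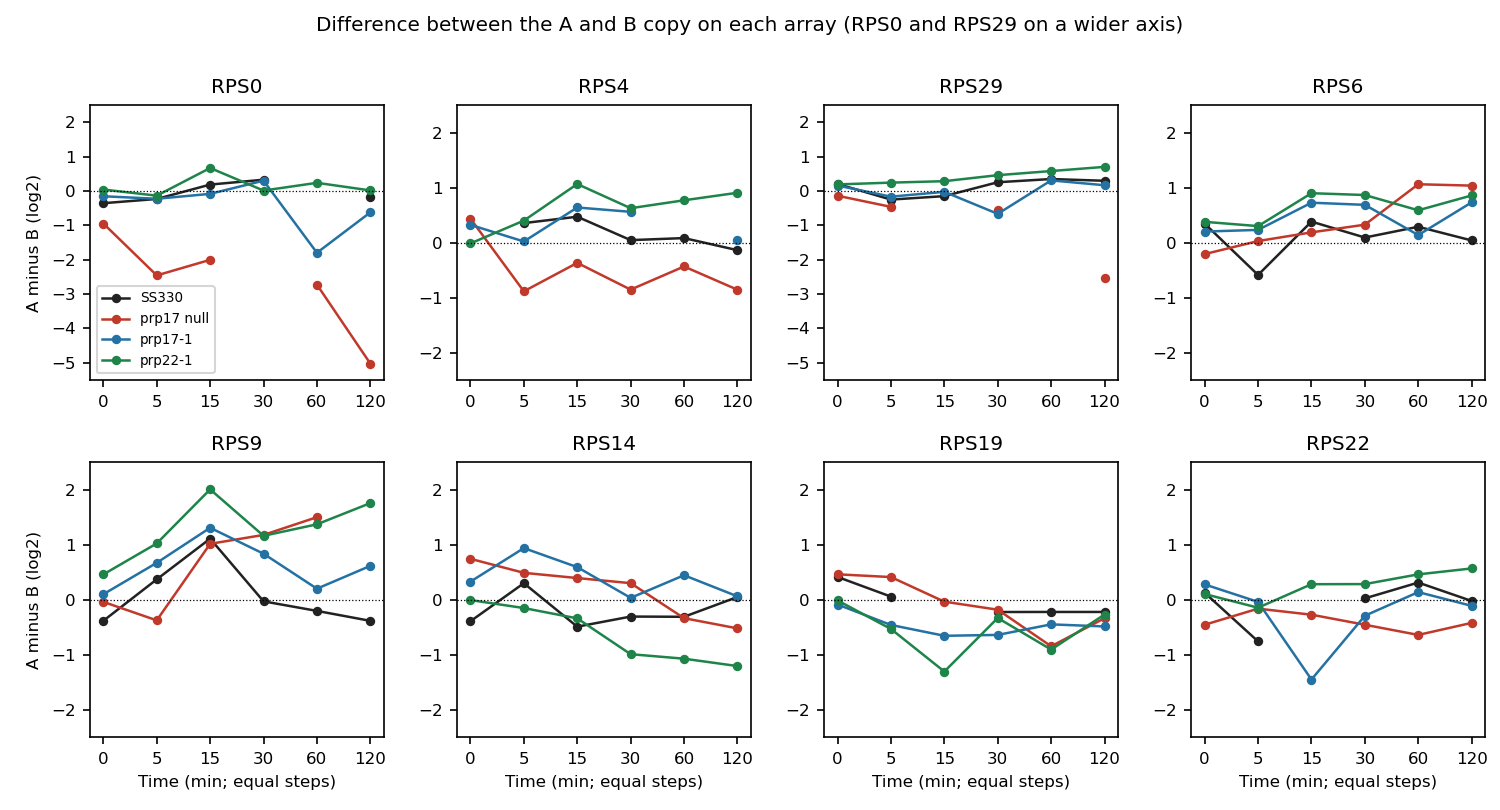
Difference between the A and the B copy on each array (vertical axis, log2) at the 6 times (horizontal axis, equal steps) for 8 pairs, with 1 line per strain; a gap marks a missing value. RPS0 goes down to -5.02 in prp17 null, and RPS9 stays between 1.02 and 2.01 in prp22-1 at 37C.

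In prp17 null the copies of RPS0, RPS29 and RPS4 parted, with A lower than B relative to SS330 in each case (limma over 53 pairs, of which 11.3% passed). These were 3 of the 23 small subunit pairs, beside 3 of the 30 pairs of other genes. Small subunit pairs were thus called about as often as A and B pairs in general. RPS0A minus RPS0B was -0.35, -0.23, 0.19, 0.33 and -0.16 in SS330, with no value at 60 min, and -0.94, -2.45, -2.0, -2.72 and -5.02 in prp17 null, with no value at 30 min. All prp17 null values lay below those of SS330, the 23C value included, and the fitted difference at 37C was -2.92 ± 0.45 (adjusted p = 0.000493). RPS0A fell in prp17 null as most genes did, from -0.63 at 23C to -3.63 at 120 min, with a late difference of -2.28 ± 0.45 (adjusted p = 0.00141), while RPS0B did not. RPS4A minus RPS4B was 0.36, 0.47, 0.05, 0.08 and -0.14 in SS330 at 37C and -0.89, -0.37, -0.86, -0.43 and -0.86 in prp17 null, without overlap and with a difference of -0.84 ± 0.15 (adjusted p = 0.000646). At 23C prp17 null stood at 0.44. RPS29A minus RPS29B differed by -1.24 ± 0.38 (adjusted p = 0.0423), but this rests on the value of -2.52 at 120 min: without that array the difference was -0.43 (adjusted p = 0.187), and the call was also lost without any 1 of 10 other arrays (adjusted p = 0.0527 to 0.147). 0 pairs were called when values on all 24 arrays were required, since that filter leaves out RPS0, RPS4 and RPS29.

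In prp22-1 the A minus B difference of RPS9, RPS6, RPS4 and RPS14 was unlike that of SS330 at 37C (13.2% of the 53 pairs passed). Of the 23 small subunit pairs 3 had A higher and 1 had A lower, beside 1 and 2 of the 30 pairs of other genes. Rps9 is a body protein with a part in decoding accuracy. RPS9A minus RPS9B was 0.37, 1.11, -0.03, -0.20 and -0.38 at 37C in SS330 and 1.02, 2.01, 1.16, 1.37 and 1.76 in prp22-1, higher at all 5 times by 1.29 ± 0.28 (adjusted p = 0.00536). At 23C it was already higher, at 0.46 in prp22-1 and -0.38 in SS330. In prp17-1 RPS9A minus RPS9B was also above SS330 at all 5 times, at 0.67, 1.31, 0.84, 0.20 and 0.62, but did not pass. RPS9A itself stayed between -0.95 and 0.32 in prp22-1 at 37C while RPS9B went from -1.50 to -2.55. RPS4A minus RPS4B was 0.40, 1.07, 0.63, 0.77 and 0.91 in prp22-1, above SS330 at all 5 times by 0.59 ± 0.15 (adjusted p = 0.0126), the opposite sign from prp17 null.

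RPS6, whose protein is phosphorylated in response to nutrients, gave A minus B values of -0.59, 0.38, 0.09, 0.29 and 0.04 in SS330 and 0.30, 0.90, 0.87, 0.59 and 0.86 in prp22-1. They overlapped, and the difference was 0.66 ± 0.19 (adjusted p = 0.0208). In prp17-1 RPS6A minus RPS6B was 0.23, 0.73, 0.69, 0.14 and 0.73, above SS330 except at 60 min, and did not pass. RPS14A minus RPS14B was 0.30, -0.49, -0.31, -0.31 and 0.05 in SS330 and -0.15, -0.34, -0.99, -1.07 and -1.21 in prp22-1, a difference of -0.60 ± 0.19 (adjusted p = 0.0349) with values further apart at the late times. The calls of RPS6, RPS14 and RPS4 were lost with quantile normalization (adjusted p = 0.168, 0.281 and 0.063), and without the SS330 array at 120 min (0.0888, 0.16 and 0.0517) or certain other single arrays.

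RPS14 is the pair in which the protein is known to repress splicing of the B transcript. RPS14B read -0.05, -1.62, -1.13, -0.49, -0.33 and -0.42 in SS330 and -1.07, -0.95, -1.28, -1.58, -1.68 and -2.48 in prp17 null. RPS14A read -0.44, -1.32, -1.62, -0.80, -0.64 and -0.37 in SS330 and -0.33, -0.46, -0.88, -1.28, -2.01 and -3.00 in prp17 null. Both copies ended lowest at 120 min there, with late differences of -1.49 ± 0.32 for A and -1.49 ± 0.22 for B. In prp17-1 no pair passed (1.89% of the 53 pairs), and RPS14 had the smallest p: A minus B was 0.94, 0.59, 0.03, 0.45 and 0.06 there, higher than SS330 at all 5 times by 0.57 ± 0.19 (adjusted p = 0.184). Without the SS330 array at 120 min that difference was 0.73 (adjusted p = 0.0176).

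RPS22 is the pair in which the B gene has introns and the A gene has none. RPS22A read 0.20, -2.32, -2.60, -0.96, -0.41 and -0.48 in SS330 and -1.12, -1.42, -1.83, -2.60, -2.38 and -3.02 in prp17 null. RPS22B read 0.07, -1.56, -0.99, -0.72 and -0.46 in SS330, with no value at 15 min, and -0.67, -1.26, -1.56, -2.15, -1.74 and -2.60 in prp17 null. At the late times both copies were lower in prp17 null (-2.05 ± 0.26 for A, -1.44 ± 0.23 for B) and prp17-1 (-1.54 ± 0.26 and -1.34 ± 0.23), and in prp22-1 RPS22B passed (-1.13 ± 0.23, adjusted p = 0.0107) and RPS22A did not (-0.79 ± 0.26, adjusted p = 0.0907). The difference between the copies did not pass in prp22-1 (0.48 ± 0.26, adjusted p = 0.276), nor in prp17 null (-0.20 ± 0.26, adjusted p = 0.683) or prp17-1 (-0.16 ± 0.26, adjusted p = 0.806). RPS22A and RPS14B are next to each other on their chromosome.

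In the shift 1 of the 23 small subunit pairs passed, near the share of all pairs (5.66% of 53). RPS19A fell more than RPS19B, by -0.60 ± 0.16 (adjusted p = 0.034): A minus B was 0.42, 0.46, -0.09 and -0.01 at 23C in SS330, prp17 null, prp17-1 and prp22-1 and -0.22, -0.34, -0.49 and -0.27 at 120 min. The call was lost without any 1 of the 23C arrays (adjusted p = 0.0789 to 0.178). RPS9 came next, with A above B by 0.76 ± 0.23 (adjusted p = 0.0511). In prp17 null the difference between copies also changed from early to late for RPS9 (2.0 ± 0.38, adjusted p = 0.00733) and RPS27 (1.33 ± 0.37, adjusted p = 0.0439), beside 9.43% of the 53 pairs, and in the other mutants no pair passed. The 2 calls in prp17 null were among 23 small subunit pairs, near the share of all pairs.

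RPS31, which encodes a head protein made as a fusion with ubiquitin, followed the group. It read 0.17, -1.46, -1.83, -1.03, -0.43 and -0.42 in SS330 and -0.91, -1.39, -1.58, -1.96, -2.32 and -3.49 in prp17 null. Its late differences were -1.96 ± 0.28, -1.23 ± 0.28 and -1.06 ± 0.28 in prp17 null, prp17-1 and prp22-1, and all 3 passed. RPS24A, which was not tested, read between -1.39 and -0.56 in SS330 and gave -0.57, -1.34 and -1.35 at 0, 15 and 60 min in prp17 null. ASC1, the head protein without an RPS name that serves as a signalling scaffold, read -0.27, -1.99, -2.15, -1.42, -0.85 and -0.68 in SS330 and -0.74, -1.31, -1.71, -1.98, -3.10 and -4.86 in prp17 null. Its shift was -1.65 ± 0.39 (adjusted p = 0.00359) and its late difference in prp17 null -2.33 ± 0.44 (adjusted p = 0.000894).

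Genes that assemble or escort the small subunit followed it in part. Of 20 such genes, 10 were lower in the shift and 0 higher, beside 16.9% and 13.8% of all probes. By time, 13, 13, 6, 0 and 0 were lower at 5, 15, 30, 60 and 120 min, beside 14.6%, 17.7%, 9.7%, 2.61% and 9.95% of all probes. Their median at 120 min was -0.19, against -1.48 for the small subunit genes. In prp17 null at the late times 11 were lower and 1 higher, beside 22.5% and 18.3% of all probes. In the late minus early test of prp17 null 0 of the 19 with an estimate were lower, beside 5.68% of all probes. EMG1, an 18S rRNA methyltransferase, fell by 1.05 ± 0.21 in the shift and was -1.50 ± 0.24 from SS330 at the late times in prp17 null. DIM1, the dimethyltransferase of the 18S rRNA, gave -1.15 ± 0.20 and -1.25 ± 0.21. YAR1, the chaperone of Rps3, was the gene that was higher, by 0.70 ± 0.17. In prp17-1 and prp22-1 0 of the 20 passed at the late times (limma, 1 and 5 at an unadjusted p under 0.05). Of all probes 4.52% and 3.08% were lower there, shares at which 20 genes give few calls or none.

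The regulators of ribosomal protein genes were called about as often as probes in general. Of 12 tested, 2 were lower in the shift, where 16.9% of all probes were: RAP1 (-0.49 ± 0.15) and FHL1 (-0.38 ± 0.13), which bind their promoters. In prp17 null at the late times, where 22.5% of all probes were lower and 18.3% higher, 3 were lower, RAP1 (-0.80 ± 0.17), FHL1 (-0.52 ± 0.14) and TOD6 (-0.84 ± 0.29), and 2 higher, the kinase SCH9 (0.41 ± 0.15) and STB3 (0.54 ± 0.12). STB3 was also higher in prp22-1 (0.46 ± 0.12). These differences were smaller than the median late difference of the small subunit genes themselves.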

How the data were processed

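The submitters deposited 1 log2 ratio per probe and array, Cy5 total RNA over Cy3 genomic DNA per the labels. Base 2 was assumed for the logarithm because no source used here names it, and the direction follows from the low CDC40 values of prp17 null. How spots were background-corrected, normalized and filtered before deposit, and how far each lay above background, is not known here, so the number of arrays limits the precision. Samples were grouped by strain and temperature from their descriptions.

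Each array was centred on its median. A probe was tested with a value on at least 20 of 24 arrays and on at least 3 of 5 at 37C per strain, which left 5487 of 6350 probes. The models were run in limma (version 3.58.1, R 4.3.3) on the arrays with a value. P-values were adjusted by Benjamini-Hochberg across the tested probes, with a threshold of 0.05. The shift took strain as a block and time as a factor, and strain comparisons took the time as a block. Early means 5 and 15 min and late 30, 60 and 120 min, a split made with the turn between 15 and 30 min already known. A minus B was fitted over all 60 symbol pairs that differ in a last A or B, 53 tested, including 2 of Ty elements. The fits were checked on simulated data. Python 3.11.15 with pandas 2.3.3, numpy 2.4.6 and matplotlib 3.10.9 served for tables and plots.

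The members and lists were chosen with earlier results of these data known, and the assignment to head or body after the files were read. Values array by array are given by a rule: up to 3 rises and 3 falls per strain comparison (same sign at 5 times) and per late minus early comparison, applied also to the late times; in the shift 4 falls seen in 4 strains and every gene not passing; up to 4 pairs per pair comparison; RPS14, RPS22 and RPS31 always. RPS30A, RPS9A, the late list of prp22-1 beyond 3 genes and the examples of the gene lists were chosen after their values were seen. Alternatives were values without centring, a median taken over other than ribosomal protein genes, quantile normalization, other filters and thresholds, trend and robust settings, no block, fewer strains or times, and the omission of single arrays.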

Additional observations from a re-analysis of the deposited data

Results flagged for a closer look

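Among 120 groups of 4 or 5 arrays of a strain at 37C, 3 held a value that stood apart from the rest by Dixon's test, where chance gives about 1 in 20. RPS19A read -0.402 at 30 min in prp22-1, above its other values there. RPS25B read -3.08 at 120 min in prp17-1, below its other values. RPS26B read -0.87 at 5 min in prp17-1, above its other values. Their sources were not tested.

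The difference from SS330 moved between the early and the late times by the test of that change itself for 49 small subunit genes of prp17 null, 1 gene of prp17-1 and 5 genes of prp22-1. The A minus B difference of RPS9 and of RPS27 in prp17 null did so too, by 2.0 and 1.33 on the log2 scale.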

How the results depend on the processing

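Of the 154 losses and 5 gains of a call among single genes and pairs, none changed sign. Without the prp17-1 arrays the shift gave 23 lower genes. Quantile normalization gave 5, 3 and 4 lower genes in prp17 null, prp17-1 and prp22-1, 15 in the late minus early test and 29 at the late times in prp17 null, 1 in the change from 23C in prp17-1, and 1 pair in prp22-1. No centring gave 2 in prp22-1. Requiring all 24 arrays gave 13 and 0 lower in prp17 null and prp22-1, 4 and 10 late minus early in prp17-1 and prp22-1, and 0, 0 and 2 pairs in the shift, prp17 null and prp22-1; at least 12 arrays gave 3 late minus early in prp22-1. An adjusted p under 0.01 gave 4 and 0 in prp17 null and prp22-1, 30, 0 and 0 late minus early, 21 and 18 late in prp17-1 and prp22-1, and 0 and 1 pairs in the shift and prp22-1. Trend and robust settings gave 0 in prp22-1 and 0 and 0 late minus early in prp17-1 and prp22-1. The arrays of the compared strains alone gave 1, 2 and 0 lower, and 18, 22 and 28 late minus early. Without the 4 arrays with the most missing values the counts were 1 lower in prp17-1, 4 and 0 late minus early in prp17-1 and prp22-1, and 0 pairs in the shift. Pairs in the shift were 0 without the SS330, prp17-1 or prp22-1 arrays and 3 without the prp17 null arrays. At 5 and 15 min alone, prp17 null and prp22-1 had 0 lower genes, 1 and 0 pairs, and a median of 0.47 and 0.63 for genes with an intron (-0.79 and -0.32 over all times). At 30, 60 and 120 min alone, fitted apart, the counts were 50, 37 and 24 lower and 6 pairs in prp17 null.

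The time points and strains served as blocks, and same-numbered arrays share a time and not a culture. With no replicate block the shift gave 44 lower genes and 0 pairs, prp17 null 15, prp17-1 0 and prp22-1 0 genes, the late minus early test 44, 0 and 0, and prp22-1 2 pairs.

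Leaving out each array in turn gave 43 to 52 lower in the shift, 6 to 33, 0 to 10 and 0 to 10 in the 3 mutants, 24 to 49, 0 to 15 and 0 to 24 late minus early, 45 to 50, 14 to 42 and 15 to 32 late, 0 in the change from 23C, and 0 to 2, 2 to 6, 0 to 1 and 1 to 5 pairs in the shift and the 3 mutants. Medians ranged from -1.08 to -0.45 and -1.24 to -0.56 (intron, no intron) in prp17 null, -0.88 to -0.35 and -1.06 to -0.33 in prp17-1, and -0.61 to -0.03 and -0.82 to -0.18 in prp22-1. The prp17 null count was 33 without SS330 at 5 min, 8 at 30 and 60 min and 6 at 120 min, and 32, 12, 9 and 9 without prp17 null at 15, 30, 60 and 120 min. The late count in prp17-1 was 14 without SS330 at 120 min, 21 without prp17-1 at 30 min and 24 at 120 min; in prp22-1 it was 15 without SS330 at 120 min, 19 without prp22-1 at 60 min and 18 at 120 min. The late comparisons' alternatives and the frame-based intron class were added after seeing the data. The planned intron class by coding length was not run, since no coding length was given. The cause was not tested.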
